A study of Homo sapiens with 12 samples.

Results

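Replication-dependent histone genes were followed across MOLM-13 RNA-seq libraries, with 65 members among the 57353 gene names of the count table. Members were chosen by name and by measured counts: the name had to start with HIST1H, HIST2H, HIST3H or HIST4H, and the gene had to hold at least 10 counts summed over the 12 libraries. Of 89 such names, 24 stayed under 10 counts and 15 of these held no count. By histone type, the members comprised 6 H1, 15 H2A, 16 H2B, 8 H3 and 13 H4 genes together with 7 pseudogenes. By genomic group, 48 belonged to HIST1 on chromosome 6, 13 to HIST2 and 3 to HIST3 on chromosome 1, and 1 to HIST4 on chromosome 12.

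MOLM-13 is a human acute myeloid leukemia (AML) cell line that carries an internal tandem duplication in the receptor tyrosine kinase gene FLT3, and quizartinib is a small-molecule FLT3 inhibitor. Cells were treated for 15 hr with vehicle (DMSO) or 3 nM quizartinib, either in RPMI, the regular medium, or in hBMSC-CM, a mix of RPMI and medium conditioned by HS-5 cells, a line of human bone marrow stroma. Each of the 4 groups had 3 libraries, all of them from this single cell line. The study describes its replicates as biological without giving how the cultures of these libraries were separated. The p-values weigh differences between groups against the spread between these libraries, and hold for these preparations of the cell line only. The comparisons asked how the histone genes responded to FLT3 inhibition in each medium, and whether the conditioned medium changed their levels or their response.

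Replication-dependent histone genes supply the core histones H2A, H2B, H3 and H4, around which DNA is wrapped, and the linker histone H1, which binds between nucleosomes. Their transcripts accumulate in S phase, when new DNA has to be packaged, and are degraded when replication ends. Most animal mRNAs end in a poly-A tail, whereas these mRNAs end just after a conserved RNA stem-loop that is bound by the stem-loop binding protein SLBP, although some of the genes can also give longer, polyadenylated transcripts. The libraries were poly-A selected, so the counts are of molecules that passed this selection and not of all histone mRNA.

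The stem-loop sequences are shown because they define how these mRNAs end. In the hg38 genome, the 200 bases downstream of the annotated stop codon held a 16-base match to the histone stem-loop consensus in 58 of 58 coding members, and in 73 of all 19924 protein-coding genes (0.366%). Of these 73 genes, 71 belonged to the 4 HIST families, and the others were H2AX and BTBD10. The form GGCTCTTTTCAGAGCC was found in 33 members, and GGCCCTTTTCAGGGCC in 8, all of them H4 genes. Examples from 5 histone types are given on the sense strand with 7 flanking bases on each side, the stem-loop being in capitals:
HIST1H1E: acccaaaGGCTCTTTTCAGAGCCacccacc
HIST1H2AG: aaccaacGGCTCTTTTCAGGGCCacccacg
HIST1H2BK: ccccaaaGGCTCTTTTAAGAGCCacttaaa
HIST1H2BE: acccaaaGGCTCTTTTCAGAGCCactcacc
HIST1H3A: aagcaaaGGCTCTTTTCAGAGCCaccacct
HIST1H4E: aatcaaaGGCCCTTTTCAGGGCCgcccaca
The stem-loop of HIST1H1E lies at chr6:26157095-26157110 on the plus strand, 44 bases past the stop codon and 5 bases short of the annotated end of its only transcript. That of HIST1H2BE lies at chr6:26184210-26184225 on the plus strand, where 1 of its 2 annotated transcripts continues for 430 bases beyond it. In all, 15 of the 58 members had an annotated transcript that ran more than 100 bases past the stem-loop.

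Upstream of the genes, sequence elements differed by histone type. RefSeq promoters (GRCh38.p14, 250 bases before to 50 bases after the start) were matched for 51 of the 65 members, all of them coding. The octamer ATTTGCAT, searched on both strands, was present in 9 of 14 H2A and 11 of 14 H2B promoters, in none of the 6 H1, 6 H3 and 11 H4 promoters, and in 1.77% of all 35116 promoters. A CCAAT box (CCAAT, both strands) was present in every H1, H2A, H2B and H3 promoter matched but in 2 of 11 H4 promoters, against 34.6% of all promoters, and a TATA box (TATAAA, both strands) was present in 35 of the 51 (68.6%), against 11.5%. These are letter matches and not measured binding sites, and no motif contains another. The promoters shown, 5′ to 3′ with these motifs in capitals, are those of the coding H2B genes with the lowest and the highest log2 fold change with quizartinib in RPMI among the members that passed the study's filter:
HIST1H2BG: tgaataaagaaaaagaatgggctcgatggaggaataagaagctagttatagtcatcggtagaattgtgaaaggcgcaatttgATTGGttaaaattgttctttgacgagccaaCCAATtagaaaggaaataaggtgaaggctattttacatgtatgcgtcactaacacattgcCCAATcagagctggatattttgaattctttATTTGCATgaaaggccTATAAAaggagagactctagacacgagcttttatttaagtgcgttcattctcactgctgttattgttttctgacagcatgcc
HIST1H2BE: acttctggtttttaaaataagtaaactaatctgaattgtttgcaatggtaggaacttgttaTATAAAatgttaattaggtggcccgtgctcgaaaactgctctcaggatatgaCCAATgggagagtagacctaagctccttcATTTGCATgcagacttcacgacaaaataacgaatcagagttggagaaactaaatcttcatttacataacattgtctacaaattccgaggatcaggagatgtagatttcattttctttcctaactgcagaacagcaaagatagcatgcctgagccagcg
The HIST1H2BG promoter spans chr6:26216639-26216938 on the minus strand, and the HIST1H2BE promoter spans chr6:26183511-26183810 on the plus strand. Both hold an octamer, a CCAAT box and a TATA box by letters, although the TATAAA of HIST1H2BE lies much further upstream of the start than that of HIST1H2BG. Among the tested H2A and H2B members with a matched promoter, the median log2 fold change with quizartinib in RPMI was -2.0 for the 17 with an octamer and -1.76 for the 8 without, given as a description.

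The libraries held between 19966546 and 31546104 counts. Members took 2.18% ± 0.0507 (SD, n = 3) of all counts with vehicle in RPMI, 0.685% ± 0.0468 with quizartinib in RPMI, 2.28% ± 0.14 with vehicle in hBMSC-CM and 0.849% ± 0.0296 with quizartinib in hBMSC-CM. Other RNAs without a poly-A tail were counted as well, and RN7SL1, the RNA of the signal recognition particle, had means of 19430 and 20419 CPM (counts scaled to the size of each library) with vehicle and quizartinib in RPMI. Of 16 listed RNAs of this kind, 6 were high enough to be tested, of which 1 rose and 5 did not pass the test with quizartinib in RPMI, while 2 rose and 2 fell in hBMSC-CM. The other 10 were at or near 0, and most of the list's sum was RN7SL1. That sum was 22565 to 23686 CPM with vehicle against 21840 to 28142 CPM with quizartinib in RPMI, and 24985 to 28607 CPM against 17821 to 23918 CPM in hBMSC-CM, and its part in the histone changes was not tested. Mitochondrial genes took a larger share of the counts with quizartinib, without overlap, at 0.683% to 0.79% with vehicle against 1.02% to 1.10% with quizartinib in RPMI and 0.458% to 0.614% against 0.683% to 0.947% in hBMSC-CM, and the part of this shift was not tested either. Replicates differed most within the hBMSC-CM groups, where vehicle library 3 stood at a chi-square per gene of 10.5 and 6.77 from libraries 1 and 2, and quizartinib library 1 at 9.79 and 9.45 from libraries 2 and 3. The AML genes FLT3, PTPRC, SPI1 and CD33 were all expressed, and of 7 stromal cell markers only COL1A1 was high enough to be tested, at 0.177 CPM with vehicle and 4.59 CPM with quizartinib in RPMI, while COL3A1, LUM, DCN and THY1 held no count in any library.

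Of the 65 members, 53 passed the study's filter (mean count and mean CPM over all libraries of at least 1), namely 52 coding genes and the H2B pseudogene HIST2H2BD. Their levels in every library are shown in the plot of TMM-scaled CPM. The other 12 held between 13 and 255 counts in all, and are described from a fit over the 22135 genes with at least 10 counts. Just inside the count threshold lay HIST1H2BPS2 with 13 counts and HIST1H2AM with 16, and just outside lay HIST2H3DP1 with 8 and HIST1H3E with 6. Each of the pairs HIST2H2AA3 and HIST2H2AA4, HIST2H4A and HIST2H4B, HIST2H3A and HIST2H3C, and HIST1H4J and HIST1H4K shares its whole coding sequence. Reads that lie wholly within it cannot be assigned to 1 of the copies. These 8 genes and 3 others that share over 50% of their coding 50-base words (HIST1H2AI, HIST1H2AJ and HIST2H3D) are therefore uncertain as single genes, whereas 20 of the 52 tested coding members share no such word. Annotated exons of 11 members overlap those of another gene on either strand, among them HIST1H2AC, HIST1H3J, HIST1H4H, HIST2H2AB and HIST3H2BB, whose reads could belong in part to the neighbour.

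**Figure D1:**
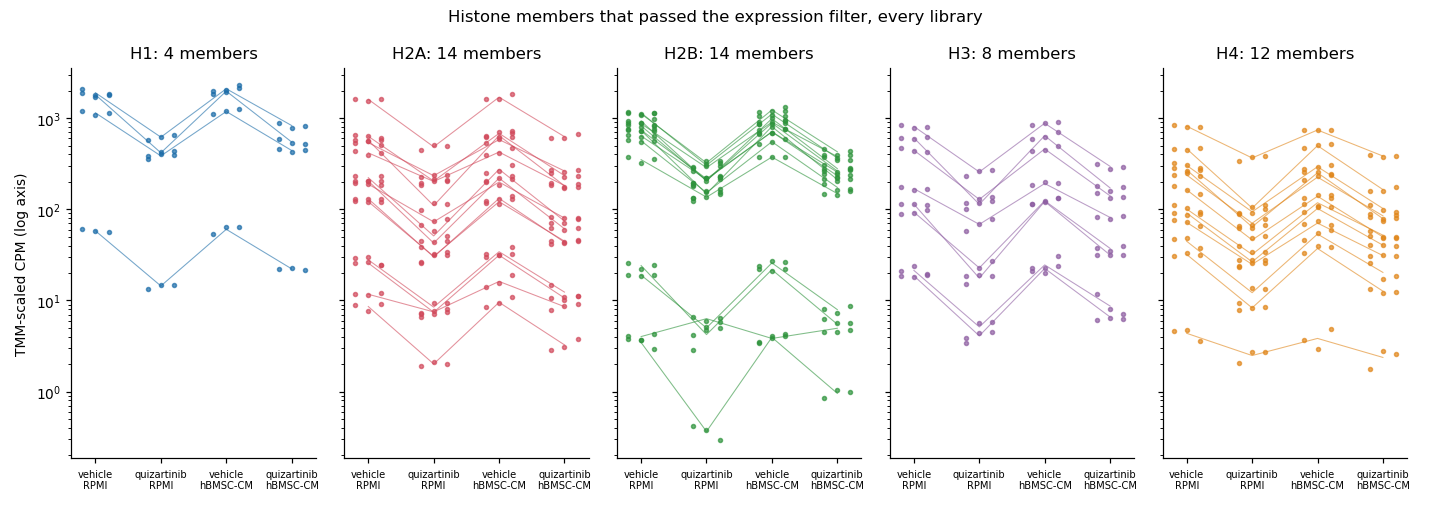
TMM-scaled CPM (log axis) of the 52 coding members that passed the filter, in 1 panel for each histone type, where each point is a library and each line joins the means of a gene over the 4 groups. Most lines drop from vehicle to quizartinib in both media, and the line of HIST1H2BE, at 4.02 CPM with vehicle in RPMI and 6.32 CPM with quizartinib, rises.

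With quizartinib in RPMI, nearly the whole histone family fell. Of the 53 members tested, 51 fell and 2 rose, the H2B gene HIST1H2BE and the pseudogene HIST2H2BD (edgeR quasi-likelihood test, Benjamini-Hochberg adjusted p under 0.05), whereas 39.4% of all 12998 genes tested fell and 39.8% rose. The median log2 fold change was -1.79 over the members and 0.02 over all genes tested, and 49 members fell by more than 2-fold. In all 53 members the vehicle and quizartinib libraries did not overlap, which was also the case for 81.1% of all genes tested. Summed over all 65 members, the level went from 23149, 21781 and 22361 CPM in the vehicle libraries to 6051, 6797 and 6974 CPM in the quizartinib libraries, so that 29.5% of it was left. The lowest vehicle sum lay far above the highest quizartinib sum. In bulk samples, fewer cells of a type and less RNA per cell cannot be told apart, and this holds for the share of cells in S phase. By flow cytometry of MOLM-13 cells, the study reported a similar arrest in G1, the phase before S phase, with quizartinib in either medium. The part of this arrest in the histone changes was not tested.

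All histone types took part, and their summed levels fell to a similar extent. The part left with quizartinib in RPMI was 29.3% for H1, 31.6% for H2A, 27.7% for H2B, 27.1% for H3 and 32.8% for H4. Every H1, H2A, H3 and H4 member tested fell, and 13 of 14 H2B members did. Median log2 fold changes were -1.81 over 4 H1, -1.76 over 14 H2A, -1.90 over 14 H2B, -2.05 over 8 H3 and -1.77 over 12 H4 members.

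The linker histone genes HIST1H1E, HIST1H1B and HIST1H1C were among the most counted members, whereas HIST1H1T and HIST1H1A held 89 and 44 counts over all libraries. HIST1H1E (chr6:26156329-26157115, plus strand, a gene with a single exon) stood at 2063, 1782 and 1840 CPM with vehicle in RPMI and at 579, 629 and 648 CPM with quizartinib. All vehicle libraries were well above all quizartinib libraries, and the log2 fold change was -1.62 ± 0.0676 (SE, n = 3 per group, edgeR adjusted p = 2.44e-15). HIST1H1B (chr6:27866792-27867588, minus strand) stood at 1904, 1689 and 1815 CPM with vehicle and at 384, 426 and 439 CPM with quizartinib. Its fall, -2.11 ± 0.0649 on the log2 scale, was the largest among the H1 members that passed the study's filter. HIST1H1D and HIST1H1C, which encode further somatic H1 proteins, changed by -2.01 and -1.57.

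H2A genes ranged from a fall of more than 5-fold to a modest one. HIST1H2AH stood at 582, 561 and 572 CPM with vehicle in RPMI and at 97.5, 118 and 115 CPM with quizartinib, with a log2 fold change of -2.38 ± 0.0612. The groups were wide apart and the replicates close together. HIST1H2AG (chr6:27133043-27133535, plus strand), the H2A member with most counts, stood at 1628, 1560 and 1631 CPM with vehicle and at 444, 510 and 499 CPM with quizartinib (log2 fold change -1.73 ± 0.0618). Among the other H2A members, HIST1H2AJ, HIST1H2AL, HIST1H2AB, HIST1H2AE and HIST1H2AK changed by between -2.26 and -2.0, and HIST2H2AA3, HIST2H2AA4, HIST1H2AI, HIST2H2AB and HIST2H2AC by between -1.79 and -1.20. HIST1H2AC fell less, with 438, 391 and 419 CPM with vehicle against 196, 204 and 206 CPM with quizartinib (-1.04 ± 0.0569). The smallest fall among H2A members was that of HIST3H2A, from 11.7, 11.5 and 11.9 CPM to 7.26, 7.18 and 8.03 CPM (-0.65 ± 0.106, edgeR adjusted p = 9.87e-06). Both HIST1H2AC and HIST3H2A have annotated transcripts that run past the stem-loop.

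Among the 52 coding members that passed the study's filter, H2B genes had both the lowest and the highest log2 fold change. HIST1H2BG (chr6:26216200-26216688, minus strand) went from 3.76, 3.67 and 2.95 CPM with vehicle to 0.425, 0.38 and 0.292 CPM with quizartinib, a log2 fold change of -3.21 ± 0.217. Its quizartinib libraries alone lay below or near the filter level of 1 CPM, so that it passed through its vehicle libraries. Its fall is given as a description, although HIST1H2BG is included in the counts of members that fell. By contrast, HIST1H2BE (chr6:26172059-26184655, plus strand) went from 4.06, 3.71 and 4.28 CPM to 6.57, 6.01 and 6.38 CPM. All its quizartinib libraries exceeded all its vehicle libraries, with a log2 fold change of 0.65 ± 0.115 (edgeR adjusted p = 2.61e-05). The annotated exons of HIST1H2BE overlap those of a gene on the opposite strand, and since no source states whether the counting used strand, the reads of these genes cannot be told apart. Its longer annotated transcript begins upstream of the RefSeq start used for the promoter above.

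The abundant H2B genes moved with the rest of the family. HIST1H2BC stood at 1163, 1112 and 1148 CPM with vehicle in RPMI and at 282, 311 and 320 CPM with quizartinib (log2 fold change -1.91 ± 0.0612). HIST1H2BM, HIST1H2BJ, HIST2H2BF and HIST1H2BO changed by between -2.52 and -2.0, HIST3H2BB, HIST1H2BL, HIST1H2BK, HIST1H2BF and HIST1H2BD by between -1.93 and -1.60, and HIST2H2BE and HIST1H2BN by -1.59 and -1.37. Annotated exons of HIST1H2BC overlap the antisense gene HFE, and those of HIST2H2BF overlap FCGR1A.

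The H3 members had the lowest median. HIST1H3A (chr6:26020451-26020958, plus strand) stood at 115, 113 and 113 CPM with vehicle in RPMI and at 15.3, 18.9 and 18.6 CPM with quizartinib, and its log2 fold change of -2.69 ± 0.0664 was the largest fall among the H3 members. The replicates of each group lay within a few CPM of one another. HIST1H3B, the H3 member with most counts, went from 834, 788 and 808 CPM to 234, 265 and 271 CPM (-1.66 ± 0.0567). HIST1H3J, HIST2H3C, HIST2H3A and HIST2H3D changed by between -2.42 and -2.04, and HIST1H3H and HIST1H3I by -1.79 and -1.31.

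H4 members fell as well, and the part of their sum left, 32.8%, was close to the 31.6% of H2A. HIST1H4I stood at 464, 447 and 471 CPM with vehicle in RPMI and at 91.5, 107 and 111 CPM with quizartinib (log2 fold change -2.16 ± 0.0631), the largest fall of the type. HIST1H4E (chr6:26204610-26205021, plus strand), the H4 member with most counts, went from 846, 803 and 798 CPM to 341, 370 and 386 CPM. Its fall of -1.16 ± 0.0467 was smaller, without overlap between groups. HIST1H4H, HIST2H4B, HIST2H4A, HIST1H4A, HIST1H4K, HIST1H4L, HIST1H4B, HIST1H4J and HIST1H4C changed by between -2.08 and -1.53. HIST4H4, the H4 gene on chromosome 12, went from 4.65, 4.8 and 3.64 CPM to 2.05, 2.69 and 2.73 CPM (-0.82 ± 0.182, edgeR adjusted p = 0.000319).

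**Figure D2:**
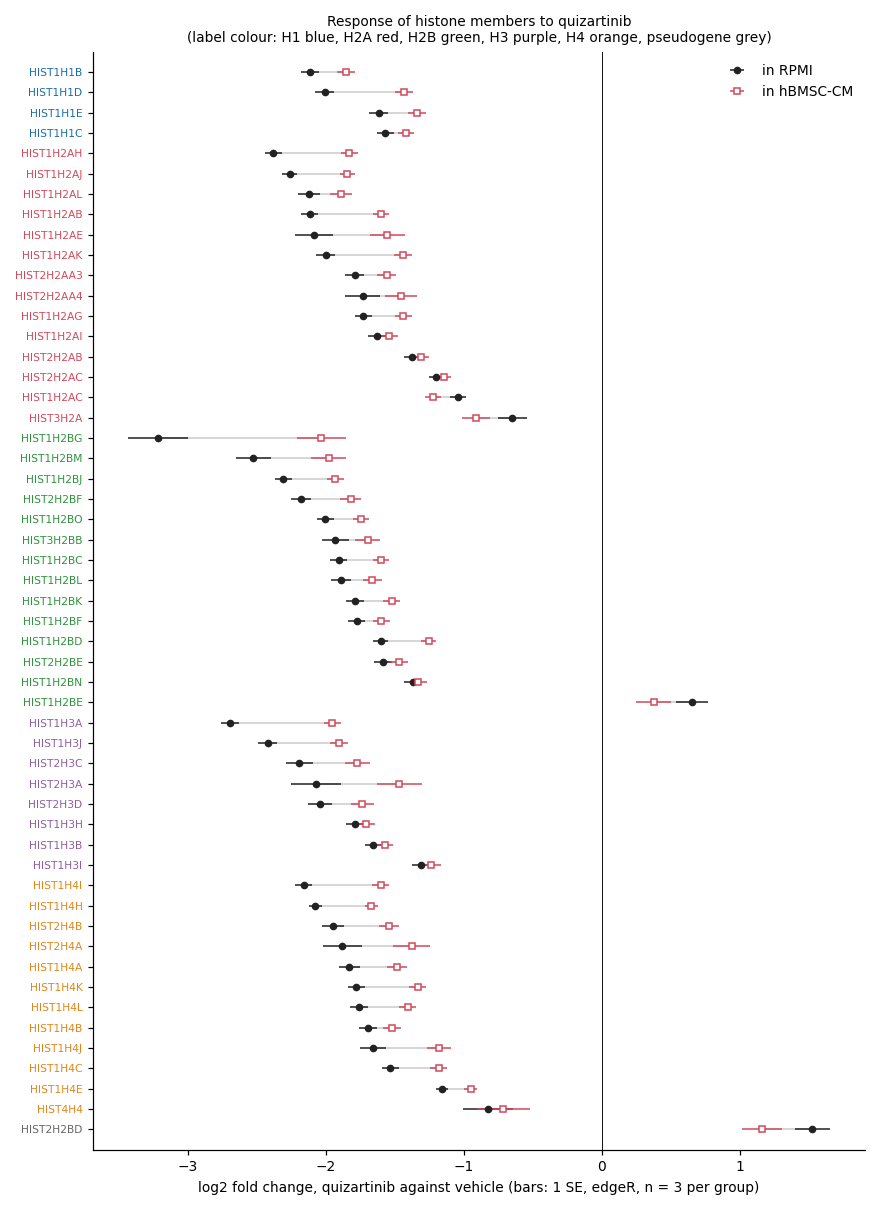
Log2 fold change with quizartinib for the 53 members tested, in RPMI (black circles) and hBMSC-CM (open red squares), with bars of 1 SE, ordered by histone type. All but HIST1H2BE and the pseudogene HIST2H2BD lie left of 0 in both media, and HIST1H2BG lies furthest left in RPMI at -3.21.

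Some members rose at low counts. The pseudogene HIST2H2BD (chr1:149843041-149843533, plus strand) went from 3.42, 3.43 and 4.28 CPM with vehicle in RPMI to 11.6, 9.84 and 10.5 CPM with quizartinib (log2 fold change 1.53 ± 0.128, edgeR adjusted p = 4.09e-10). Its exon overlaps a longer annotated gene on the same strand, so that its reads cannot be assigned to it alone. In the fit over the 22135 genes with at least 10 counts, all 65 members were tested, 53 fell and 5 rose in RPMI. Of all genes in that fit, 28.1% fell and 28% rose. The members' counts include HIST1H4D and HIST3H2BA, which reached the count threshold through the group where they are high. The additional risers were HIST1H4D, HIST1H1T and HIST1H2BB, which encode an H4, a testis-type H1 and an H2B. HIST1H4D held 2, 0 and 1 counts in the vehicle libraries against 23, 18 and 10 in the quizartinib libraries. It reached 10 counts only through the quizartinib libraries, so that its rise is a description. HIST1H1T held 3, 1 and 3 counts against 30, 18 and 11 counts (edgeR adjusted p = 2.42e-06). HIST1H2BB held 30, 15 and 10 counts against 32, 45 and 30, and its adjusted p was 0.00533. The additional members that fell were 2 pseudogenes, HIST2H2BA and HIST3H2BA. HIST2H2BA held 6, 18 and 14 counts with vehicle against 2, 3 and 2 with quizartinib. HIST3H2BA held 4, 7 and 6 counts against 1, 0 and 2, and reached 10 counts only through the vehicle libraries of both media. The pseudogene HIST1H1PS1 held 16, 9 and 9 counts against 18, 24 and 15 and did not pass it in RPMI (edgeR adjusted p = 0.0831), nor did HIST1H3PS1, HIST1H1A, HIST1H4PS1, HIST1H2BI, HIST1H2AM and HIST1H2BPS2, with 77 counts or fewer each.

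With quizartinib in hBMSC-CM, the same overall picture was found at a smaller size. Again 51 members fell and 2 rose, against 33.6% of all genes tested that fell and 33.5% that rose, and the median log2 fold change was -1.52 over the members and 0.01 over all genes. Vehicle and quizartinib libraries did not overlap in any of the 53 members, as for 68.3% of all genes tested. The summed level of all members went from 22420, 23403 and 25281 CPM to 8557, 7833 and 8304 CPM, so that 34.7% was left. By type the part left was 34.6% for H1, 36.0% for H2A, 33.2% for H2B, 31.4% for H3 and 40.4% for H4.

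Individual members showed this in detail. HIST1H1B went from 1847, 1944 and 2138 CPM to 583, 533 and 526 CPM in hBMSC-CM (log2 fold change -1.85 ± 0.0643), and HIST1H3A from 113, 121 and 132 CPM to 31.4, 31.3 and 31.8 CPM (-1.95 ± 0.0621). HIST1H2BG went from 3.45, 4.10 and 4.27 CPM to 0.842, 1.05 and 0.982 CPM (-2.03 ± 0.177), which lay within its SE of HIST1H2BM (-1.98 ± 0.125) and HIST1H3A. HIST1H2BE went from 3.52, 3.90 and 4.08 CPM to 4.46, 5.64 and 4.77 CPM (0.38 ± 0.124, edgeR adjusted p = 0.011). That rise no longer passed the test without vehicle replicate 1 (0.31, edgeR adjusted p = 0.0675) or without quizartinib replicate 2 (0.27, edgeR adjusted p = 0.0768) of the hBMSC-CM groups.

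In cells treated with quizartinib, the conditioned medium went with slightly higher levels of most members. Of 53 members, 42 were higher in hBMSC-CM, 3 were lower and 8 did not pass the test, where 35.9% of all genes tested were higher and 33.9% lower. The median log2 difference was 0.40 over the members and 0.01 over all genes. All 4 H1 members were higher, together with 12 of 14 H2A, 11 of 14 H2B, 7 of 8 H3 and 8 of 12 H4 members. Of the 45 calls, 38 held under every alternative run. The higher calls lost under at least 1 were HIST1H1C, HIST1H2AI, HIST1H2BL, HIST1H2BM and HIST2H2AB. The libraries of the media did not overlap in 42 members, against 71.5% of all genes tested.

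HIST1H3A showed the largest increase among members above 10 CPM, from 15.3, 18.9 and 18.6 CPM in RPMI to 31.4, 31.3 and 31.8 CPM in hBMSC-CM (log2 difference 0.84 ± 0.0719, edgeR adjusted p = 1.15e-09), and stayed far below its vehicle libraries. HIST1H2BG rose most on the log2 scale, by 1.34 ± 0.288, from 0.425, 0.38 and 0.292 CPM to 0.842, 1.05 and 0.982 CPM. It passed the filter through its vehicle libraries, so this size is a description. HIST1H2AH was higher by 0.72 ± 0.0601 and HIST1H4I by 0.67 ± 0.0625. HIST1H4E, at 341, 370 and 386 CPM against 394, 376 and 382 CPM, did not pass the test (0.07 ± 0.0465, edgeR adjusted p = 0.183). The 3 lower members were HIST2H2BD, HIST1H2BE and HIST1H2AC, at -0.65, -0.35 and -0.15. The call for HIST1H2AC was lost without quizartinib replicate 2 or 3 in hBMSC-CM (edgeR adjusted p = 0.0874 and 0.084) and in the fit over the genes with at least 10 counts (edgeR adjusted p = 0.125), and that for HIST1H2BE without quizartinib replicate 1 in hBMSC-CM (edgeR adjusted p = 0.0587).

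In vehicle-treated cells, the medium made little difference to the histone genes. Of 53 members, 12 were higher in hBMSC-CM, 2 were lower and 39 did not pass the test, while 16.6% of all genes tested were higher and 15.5% lower, so that the members' share of higher calls was near that of all genes. The median log2 difference was 0.10, and the groups did not overlap in 18 members, against 44.6% of all genes tested. The higher members included HIST3H2A, from 11.7, 11.5 and 11.9 CPM in RPMI to 14.0, 15.5 and 19.0 CPM in hBMSC-CM (0.46 ± 0.0962), HIST3H2BB (0.44) and HIST2H3D (0.41). The 2 lower members were the H4 genes HIST1H4A (-0.23) and HIST1H4E (-0.14). Both calls were lost without vehicle replicate 1 in RPMI (edgeR adjusted p = 0.113 and 0.134), where HIST1H4A was at -0.15, or without vehicle replicate 1 in hBMSC-CM (edgeR adjusted p = 0.0517 and 0.0511). That of HIST1H4E was also lost without vehicle replicate 2 in hBMSC-CM and in the fit over the genes with at least 10 counts (edgeR adjusted p = 0.058 and 0.0798). Of the 14 calls in this comparison, 5 held under every alternative run. HIST1H1E, at 2063, 1782 and 1840 CPM against 1961, 2050 and 2291 CPM, did not pass the test (edgeR adjusted p = 0.0904). The count of 14 called members dropped to 7 without vehicle replicate 3 in hBMSC-CM and to 9 without vehicle replicate 3 in RPMI.

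The difference between the responses in the 2 media was then tested for each member with the interaction term of the same model. In 31 of 53 members the log2 fold change was less negative in hBMSC-CM than in RPMI, and in 0 was it more negative by the edgeR test (in 1, HIST1H2AC, at an unadjusted p under 0.05), whereas over all genes tested 26.4% had a positive and 18.8% a negative interaction. The count of positive interactions was 28 with DESeq2 and 31 with limma-voom, and neither gave a negative one. Leaving out 1 library gave between 22 and 36 calls, among them 1 or 2 negative ones whenever a replicate 1 of any group was left out. Of the 31 calls, 21 held under every alternative run and 10 were lost under at least 1, namely HIST1H1B, HIST1H1E, HIST1H2AE, HIST1H2BK, HIST1H2BM, HIST1H2BO, HIST1H4E, HIST2H3C, HIST2H3D and HIST2H4A. The median interaction was 0.29 over the members and 0.02 over all genes.

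H4 genes most often showed the difference, with 10 of 12 members called (HIST1H4E and HIST2H4A among them), against 3 of 4 H1, 6 of 14 H2A, 8 of 14 H2B and 4 of 8 H3 members, and these counts were not compared by a test. HIST1H3A had an interaction of 0.74 ± 0.0913 (edgeR adjusted p = 8.71e-07), HIST1H1D of 0.57, HIST1H2AK of 0.56 and HIST1H4I of 0.56 ± 0.0859. HIST1H2BG, which is counted among the 8 H2B calls, had an interaction of 1.18. It lay below 5 CPM in every library and passed the filter through its vehicle libraries, so this value is a description. For several abundant members the responses in the 2 media could not be told apart, as for HIST1H3B (0.09 ± 0.0783, edgeR adjusted p = 0.389) and HIST2H2AC (0.06 ± 0.0705).

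**Figure D3:**
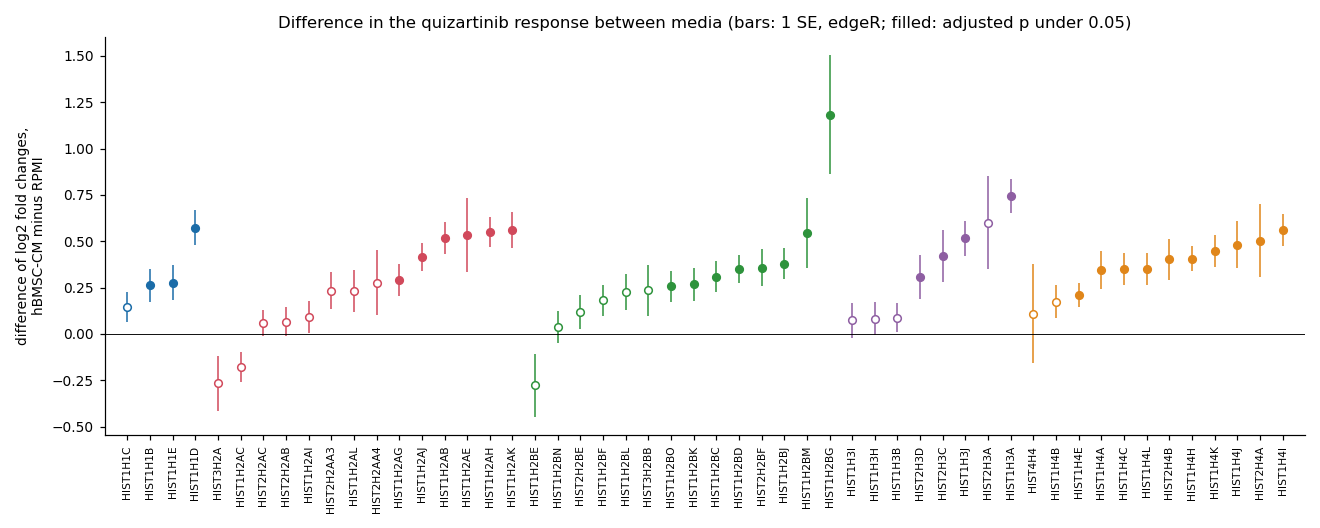
Difference of the log2 fold changes with quizartinib, hBMSC-CM minus RPMI, for the 52 coding members tested, coloured by histone type as in the axis order H1, H2A, H2B, H3, H4, with bars of 1 SE and filled points where the edgeR adjusted p is under 0.05. The filled points lie between 0.21 and 0.74, apart from HIST1H2BG at 1.18 above them.

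Genes that mark entry into S phase fell with the histones, and their changes differed more in size between the media, which was not compared by a test. All 20 genes of this list fell in RPMI (median log2 fold change -2.36) and all 20 fell in hBMSC-CM (-0.97), and all 20 had a positive interaction, with a median of 1.27 beside 0.29 for the histone members. Over all genes tested, 39.4% fell in RPMI, 33.6% fell in hBMSC-CM and 26.4% had a positive interaction. CCNE2, which encodes a cyclin that drives the start of DNA replication, stood at 78.4, 87.3 and 78.1 CPM with vehicle in RPMI and at 5.79, 5.84 and 5.50 CPM with quizartinib. In hBMSC-CM it stood at 74.8, 76.3 and 79.3 CPM and at 27.1, 29.0 and 25.4 CPM, well above the quizartinib libraries of RPMI. CCNE1, its paralogue, changed by -3.66 in RPMI and -1.35 in hBMSC-CM. The summed level of the list went from between 4728 and 4840 CPM to between 1110 and 1129 CPM in RPMI, and from between 4662 and 4831 CPM to between 2351 and 2424 CPM in hBMSC-CM. The part of the S phase genes in the histone changes was not tested.

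**Figure D4:**
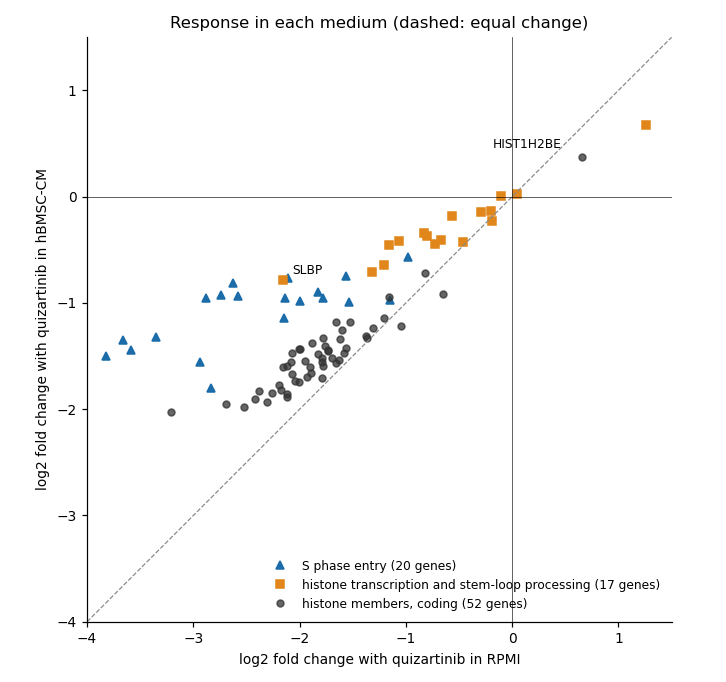
Log2 fold change with quizartinib in RPMI (x axis) and in hBMSC-CM (y axis) for 52 coding histone members (dark circles), 20 genes of S phase entry (blue triangles) and 17 genes of histone transcription and stem-loop processing (orange squares), the dashed line marking equal change. Histone members lie close to the dashed line, whereas the S phase genes and SLBP lie further above it.

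Genes that make and process histone mRNA were lower with quizartinib, with the stem-loop binding protein gene foremost. Of 17 genes of this list in the table, 14 fell, 1 rose and 2 did not pass the test in RPMI, and 13 fell and 1 rose in hBMSC-CM. Over all genes tested, 39.4% fell in RPMI and 33.6% in hBMSC-CM. SLBP stood at 136, 136 and 131 CPM with vehicle in RPMI and at 31.3, 28.7 and 30.2 CPM with quizartinib (log2 fold change -2.16 ± 0.0478). In hBMSC-CM it stood at 136, 142 and 144 CPM and at 84.5, 78.4 and 81.0 CPM (-0.79), so that its level with quizartinib was more than 2 times that in RPMI, and its interaction was 1.37 (edgeR adjusted p = 2.96e-13). ZNF473, whose protein binds the U7 particle in stem-loop processing, changed by -1.32 and -0.71, and NPAT, the coactivator of histone gene transcription, by -0.67 and -0.41. The riser was MIF4GD, which encodes a partner of SLBP, from 18.1, 16.4 and 16.1 CPM to 40.4, 40.4 and 40.3 CPM in RPMI.

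Factors of the general poly-A machinery moved less. Of 17 such genes, 12 fell and 3 rose in RPMI with a median change of -0.31 on the log2 scale, and 7 fell and 1 rose in hBMSC-CM with a median of -0.08. Of all genes tested, 39.4% fell and 39.8% rose in RPMI, and 33.6% fell and 33.5% rose in hBMSC-CM. The largest falls in RPMI were those of CPSF4 and CSTF3, which encode cleavage factors, at -0.84 and -0.68, and the largest increases those of PCF11, a further cleavage factor gene, and PABPC1, the gene of a poly-A binding protein, at 0.57 and 0.37. Of 6 members listed as having polyadenylated forms (HIST1H1C, HIST1H2AC, HIST1H2BC, HIST1H2BD, HIST1H2BK and HIST2H2BE), all 6 fell in both media, with medians of -1.59 and -1.44. This list came from general knowledge and not from the annotation. HIST1H1C and HIST1H2BK have no annotated transcript more than 100 bases past the stem-loop, so they are not among the 15 members described next. The 15 tested members with an annotated transcript that runs past the stem-loop changed by a median of -1.79 in RPMI, with values from -2.31 to 0.65, and the other 37 had a median of -1.83, with values from -3.21 to -1.16. The medians were close, whereas HIST1H2BE, HIST3H2A, HIST4H4 and HIST1H2AC, which had the smallest falls or a rise among the 52 coding members that passed the study's filter, all belonged to the former 15. The coding members HIST1H4D, HIST1H1T and HIST1H2BB, which rose at low counts, have no such transcript. These values do not separate the transcript forms, which gene counts cannot tell apart.

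Histone genes outside the replication-dependent families behaved in mixed fashion. Of 10 replacement variant genes tested, 4 rose and 6 fell in RPMI, where 39.8% of all genes tested rose and 39.4% fell. Their median change was -0.29 on the log2 scale. H1F0, the linker histone gene associated with cells that have stopped dividing, rose from 13.9, 12.1 and 13.2 CPM to 37.8, 42.9 and 41.0 CPM in RPMI (1.63 ± 0.0826), and by 0.81 in hBMSC-CM, and H1FX rose by 0.51 in RPMI. H2AFZ (H2A.Z) changed by -1.49 in RPMI and -1.0 in hBMSC-CM. H2AFX (H2A.X), which carries a stem-loop like the members, changed by -1.38 and -1.40, with an interaction of -0.01. Of 23 histone chaperone genes, 18 fell in each medium, against 39.4% of all genes tested in RPMI and 33.6% in hBMSC-CM. The falls in RPMI were led by CHAF1B, a subunit of chromatin assembly factor 1, at -2.68 and TONSL at -2.35, while ATRX and NAP1L1 rose by 0.97 and 0.32.

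Many members lie head to head with another member across a short shared promoter region. Among the tested members, 11 pairs on opposite strands had their outermost annotated starts within 400 bases of each other. Of these, 9 joined an H2A and an H2B gene, and in 10 pairs both genes fell with quizartinib in RPMI. Since 51 of all 53 members tested fell, the latter count says little about the pairs themselves. The pair of HIST1H3J and HIST1H2BO is uncertain. HIST1H3J has 2 annotated transcripts over chr6:27890315-27893106, and its stem-loop lies at the far end, at chr6:27890320-27890335. Its exons also overlap HIST1H2AM on the same strand, so its main start may lie further from HIST1H2BO. The printed HIST1H2BG promoter is also, on the other strand, most of the promoter of HIST1H2AE, since the gene starts are separated by 232 bases (chr6:26216688-26216921). HIST1H2BG changed by -3.21 and HIST1H2AE, from 8.58 CPM to 2.01 CPM on average, by -2.08. The partners differed in size in other pairs too, with HIST1H2BC at -1.91 beside HIST1H2AC at -1.04, HIST1H2BK at -1.79 beside HIST1H2AH at -2.38, and HIST3H2A at -0.65 beside HIST3H2BB at -1.93. The absolute difference between partners had a median of 0.59 on the log2 scale and was smallest, at 0.26, for HIST1H2BL and HIST1H2AI. Unpaired members were not compared in this way. In the exception, the pseudogene HIST2H2BD rose beside HIST2H2AA3, which fell by 1.79.

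**Figure D5:**
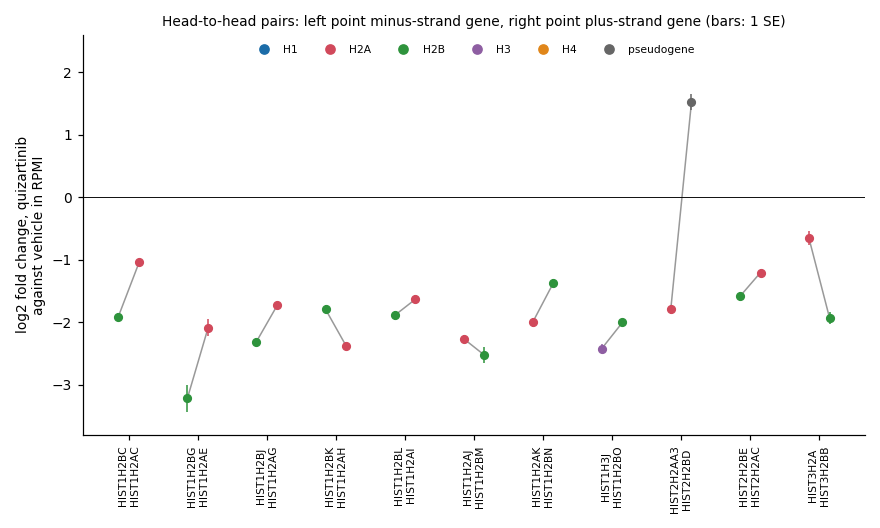
Log2 fold change with quizartinib in RPMI for the 2 genes of each of 11 head-to-head pairs, paired by outermost annotated start. The minus-strand gene is on the left and the plus-strand gene on the right, coloured by histone type, with bars of 1 SE. Both genes lie below 0 in every pair except HIST2H2AA3 with HIST2H2BD, and partners are often further apart than their error bars.

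Levels of different genes were compared only per length of annotated exon, over the 37 tested members without a transcript past the stem-loop. With vehicle in RPMI, HIST1H2AG had the highest level, 3258 CPM per kilobase, followed by HIST1H1E at 2408, HIST1H1B at 2262 and HIST1H2BK at 2256 CPM per kilobase, and these last 3 levels differed by less than the SD of HIST1H1E between replicates (189 CPM per kilobase). The H4 gene with the highest level was HIST1H4E at 1980 and the H3 gene HIST1H3B at 1585 CPM per kilobase. HIST1H2BG was the lowest of the 37, at 7.07 CPM per kilobase. With quizartinib in RPMI, HIST1H2AG was still the highest at 983 CPM per kilobase, and HIST1H4E followed at 888, above HIST1H1E at 786 CPM per kilobase.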

How the data were processed

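RNA was poly-A selected and sequenced paired-end from 12 MOLM-13 libraries. The authors trimmed adapters with BBDuk, aligned and counted reads with STAR 2.6.0a against the human hg38 Ensembl annotation, added up identifiers with 1 gene name, and deposited unnormalised counts per gene. The strand setting and the handling of reads with several matches are not given in the sources used here. Groups were taken from the sample labels, with 3 libraries each.

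Members, gene lists and the rule for named genes were chosen with earlier results of these data known. Every member that passed the study's filter is named, with the 4 highest and 2 lowest of the others, and for each list the 2 called genes with the largest increase and the 2 with the largest decrease with quizartinib in RPMI, NPAT, HIST1H4D, HIST3H2BA and the other 4 members with few counts being added after their values were seen. Counts were scaled by TMM and tested with edgeR 4.0.16 (R 4.3.3) in 1 quasi-likelihood model with 4 group means, over 12998 genes (mean count and mean CPM of at least 1). P-values were two-sided, adjusted by the Benjamini-Hochberg method over all genes tested, at a threshold of 0.05, and SEs were computed from the fold change and its F statistic. The steps were tested on simulated data. Replicates of a group differed by more than counting noise (chi-square per gene 2.66 to 10.5), so each was kept as a replicate.

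Alternatives were RLE size factors, library size alone, all 22135 genes with at least 10 counts, DESeq2 1.42.0, limma-voom 3.58.1, a replicate block, the 2 groups compared alone, and each library left out. Old symbols were matched to GENCODE v44 and RefSeq by synonyms (64 of 65 members), a later annotation than the authors'. Stem-loops, promoters and shared 50-base words were read from hg38 and RefSeq.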

Additional observations from a re-analysis of the deposited data

Results flagged for a closer look

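The response to quizartinib differed between hBMSC-CM and RPMI in 31 of 53 members by the interaction term (edgeR adjusted p under 0.05). Over all 12998 genes tested, 26.4% had a positive and 18.8% a negative interaction. Each value below is the log2 fold change in hBMSC-CM minus that in RPMI, so that a positive value means a smaller fall in hBMSC-CM. Of the linker histone genes, HIST1H1D differed by 0.57, HIST1H1E by 0.28 and HIST1H1B by 0.26. Of the H2A genes, HIST1H2AK differed by 0.56, HIST1H2AH by 0.55, HIST1H2AE by 0.53, HIST1H2AB by 0.52, HIST1H2AJ by 0.42 and HIST1H2AG by 0.29. HIST1H2AE is below 10 CPM on average in each group.

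Of the H2B genes, HIST1H2BG differed by 1.18, HIST1H2BM by 0.55, HIST1H2BJ by 0.38, HIST2H2BF by 0.36, HIST1H2BD by 0.35, HIST1H2BC by 0.31, HIST1H2BK by 0.27 and HIST1H2BO by 0.26. HIST1H2BG had means of 0.366 CPM in RPMI and 0.958 CPM in hBMSC-CM with quizartinib. It passed the filter only through its vehicle libraries, so its value is a description, although it is counted among the calls. Of the H3 genes, HIST1H3A differed by 0.74, HIST1H3J by 0.52, HIST2H3C by 0.42 and HIST2H3D by 0.31. The H4 genes gave the most calls for their number. HIST1H4I differed by 0.56, HIST2H4A by 0.50, HIST1H4J by 0.48, HIST1H4K by 0.45, HIST1H4H by 0.41, HIST2H4B by 0.40, HIST1H4L by 0.35, HIST1H4C by 0.35, HIST1H4A by 0.35 and HIST1H4E by 0.21. HIST2H4A with HIST2H4B, HIST1H4J with HIST1H4K, and HIST2H3C with HIST2H3A share identical coding sequences and cannot be taken as independent genes here.

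Several of these calls rest on single libraries or settings, and 21 of the 31 held under every alternative run. HIST2H4A was lost with the replicate block and with DESeq2 (adjusted p = 0.0585 and 0.189) and without 6 of the 12 libraries, and differed by 0.30 without quizartinib replicate 1 in hBMSC-CM and by 0.32 without quizartinib replicate 1 in RPMI. HIST2H3D was lost with RLE size factors and with DESeq2 (adjusted p = 0.0501 and 0.183) and without 9 of the 12 libraries, and differed by 0.16 without quizartinib replicate 1 in RPMI. Without that same library HIST1H2BM differed by 0.31 and HIST2H3C by 0.28, and neither passed the test (edgeR adjusted p = 0.125 and 0.097), while HIST1H4A differed by 0.22 and still passed it. HIST1H2BM was also lost without replicate 1 of the RPMI vehicle or the hBMSC-CM quizartinib group, and HIST2H3C without quizartinib replicate 3 in hBMSC-CM. HIST1H2AE was lost with DESeq2 and without 8 of the 12 libraries. HIST1H1B and HIST1H1E were lost without replicate 1 of any group, and HIST1H2BK, HIST1H2BO and HIST1H4E without replicate 1 of either RPMI group.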

How the results depend on the processing

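No called member changed direction under any alternative run. All 53 members tested passed the test with quizartinib in RPMI under every scaling, tool and left-out library, and 52 to 53 did in hBMSC-CM, where HIST1H2BE was the call lost. Leaving out 1 library at a time gave 40 to 49 called members for the medium with quizartinib (45 with all libraries), 7 to 20 for the medium with vehicle (14) and 22 to 36 for the interaction (31). The replicate block gave 53, 53, 45, 12 and 30 called members for quizartinib in RPMI, quizartinib in hBMSC-CM, the medium with quizartinib, the medium with vehicle and the interaction. Deviations of libraries with the same number correlated at between -0.297 and 0.138, so the numbers were not taken to pair samples. Scaling by library size alone raised the median log2 change of all genes with quizartinib in hBMSC-CM by 0.101 and lessened the summed falls there to -1.42 for all members, -1.43 for H1, -1.37 for H2A, -1.49 for H2B, -1.57 for H3 and -1.21 for H4. In RPMI it lessened them to -1.67, -1.68, -1.57, -1.76, -1.79 and -1.52 in the same order, by more than the spread between replicates for H1.

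Single members are limited by reads that share a name, an overlapping gene or a near-identical copy, and members below 1 CPM rest on few counts. Changes in the level of histone transcripts and in the share that passes poly-A selection cannot be told apart in these libraries.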

Other observations

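Of the 24 names that did not reach 10 counts, 13 have an annotated stop codon, and all 13 hold the stem-loop consensus downstream of it. The other 11, all pseudogenes, have no annotated stop codon and were not searched. HIST1H3E held 6 counts, HIST1H2AD 5, HIST1H3C 4, and HIST1H2BH and HIST1H3G 1 each, over all 12 libraries. HIST1H3E held 3 and 2 counts in quizartinib replicates 2 and 3 in RPMI and 1 in quizartinib replicate 1 in hBMSC-CM, with 0 in the vehicle libraries, too few to compare.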
